A study of Mus musculus with 405 samples.

Results

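Potassium channel genes were followed through a chemical screen of mouse cortical neuron cultures. Members were all rows whose symbol starts with Kcn, which gave 72 of 13304 genes in the screen table and 97 of 23893 genes in a separate count table. The symbols cover pore-forming channel subunits, accessory and regulatory proteins and 3 antisense or overlapping RNAs, and 25 of the 97 are in the count table alone. Cultures were primary cells of E15 cortex from C57BL/6J dams mated with CAST/EiJ males, so all groups are hybrids of both strains. The feeding medium held a mitosis inhibitor, and markers of neurons and of non-neuronal cells were both present in vehicle, as given with the pyraclostrobin results. Treatment lasted 24 h from day 7 in vitro, at a dose chosen as non-cytotoxic. The screen table held 393 libraries, 49 of the solvent vehicle (DMSO) and 344 of 297 chemicals. Topotecan at 0.3 µM had 32 libraries, and 282 chemicals had 1 each. The count table held 4 libraries of pyraclostrobin at 0.1 µM, of 2409623 to 2550437 counts, and 4 of vehicle, of 2778615 to 7833440 counts. Nothing in the labels ties the libraries of 1 group to separate litters. The p-values therefore measure the spread between these libraries, which may be partly technical. Comparisons of a chemical class with vehicle used 1 median per chemical, at unequal doses. Their p-values measure a spread pooled over the 49 vehicle libraries and the chemicals, not agreement within the class.

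Potassium channels let potassium leave the cell and thereby set the resting potential, repolarise action potentials and limit repetitive firing. Voltage-gated subunits (Kv1 to Kv4, Kv7 and the EAG, ERG and ELK group) open on depolarisation, calcium- and sodium-activated subunits (BK, SK, Slack and Slick) respond to ions that enter during activity, inward rectifiers (Kir) and 2-pore-domain subunits (K2P) carry resting currents, and silent Kv subunits, Kv beta, KChIP, KCNE and BK beta proteins modify the pore subunits with which they assemble. In cortex most of these genes are used by neurons, while Kcnj10 (Kir4.1) is the principal potassium-buffering channel of astrocytes.

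The pore subunits share a short coding stretch for the selectivity filter, shown here because it sets the pore subunits apart from the accessory members that the symbol rule also takes in. The selectivity-filter motif searched runs over 5 codons in frame, the first with C and the second with T as middle base, the third and the fifth coding for glycine and the fourth starting with T. This motif, read on the coding strand of the longest coding sequence of each gene, was present in 68 of 94 members with a coding sequence (72.3%) and in 617 of 22594 genes overall (2.73%). It was found in all members of Kv1 (8), Kv2 (2), Kv3 (4), Kv4 (3), Kv7 (5), SK (4), Kir (15) and the silent Kv group (10), and in none of the KChIP (4), Kv beta (3), KCNE (5) or BK beta (4) genes. The motif stood in 12 of 14 K2P genes, and 11 members held it at 2 places. In the EAG, ERG and ELK group 1 of 8 genes held it, and a form whose first codon starts with A and then G was present in 7 of 8. That form stood in 8 of 94 members (8.51%) and 132 genes overall (0.584%), and no stretch can match both forms. The following 27-base stretches are from GENCODE M1 transcripts on NCBIM37 (mm9), 5′ to 3′ on the coding strand, with the motif in capitals. They were chosen to show 1 example for several kinds of pore subunit that the results turn on.
Kcna1 (exon 2, chr6:126592240-126592266, minus strand): atgaccACTGTGGGATACGGTgacatg
Kcnc2 (exon 3, chr10:111893279-111893305, plus strand): atgactACCTTAGGTTACGGGgatatg
Kcnh3 (exon 8, chr15:99063354-99063380, plus strand): ctcaccAGTGTGGGCTTCGGCaacgtg
Kcnq3 (exon 6, chr15:65855287-65855313, minus strand): ctggccACCATTGGTTATGGAgacaag
Kcnt1 (exon 11, chr2:25749881-25749907, plus strand): ttctcaACTGTGGGCTTCGGTgatgtg
Kcnma1 (exon 7, chr14:24347629-24347655, minus strand): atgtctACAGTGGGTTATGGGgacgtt
Kcnn1 (exon 5, chr8:73374550-73374576, minus strand): ttcttgTCCATTGGCTATGGAgacatg
Kcnj10 (exon 2, chr1:174299427-174299453, plus strand): cagaccACCATCGGCTATGGCttccgc
Kcnk2 (second copy, exon 5, chr1:191080454-191080480, minus strand): ctgacgACCATTGGATTTGGAgactac

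Of the 97 members of the count table, 64 had at least 10 counts in at least 4 libraries and entered the test. The other 33 held at most 115 counts over all 8 libraries, and 4 of them (Kcna10, Kcnj1, Kcnk7 and Kcnk16) held none. All 64 are also in the screen, which holds 8 further members. Levels were compared between genes only after division by exon length, as normalised read counts scaled to library size (CPM) per kb of exon in vehicle, for 96 members with a gene model. The highest was Kcnj4 (Kir2.3) at 41.1 ± 7.08 CPM per kb (SD, n = 4). Also high were Kcnk9 (TASK-3) at 34.1 ± 20, Kcna2 (Kv1.2) at 29.1 ± 9.01 and Kcnd2 (Kv4.2) at 28.4 ± 7.52 CPM per kb. Kcnmb4os1 stood at 26 ± 6.21, Kcna6 at 25.7 ± 3.66, Kcnq5 at 23.8 ± 7.95, Kcnf1 at 20.7 ± 2.15 and Kcnk2 at 17.9 ± 0.879 CPM per kb. Kcnmb4os1 lies within Kcnmb4 on the opposite strand, so its level may hold reads of Kcnmb4. No neighbours among the 10 highest were separated, since the ranges of the 4 vehicle libraries overlapped for each pair. Without vehicle library 1 Kcnj4 and Kcnk9 still led, and Kcnma1 (18.1 CPM per kb) entered the first 10 above Kcnk2. The lowest were 6 genes at 0 in all vehicle libraries, namely Kcna10, Kcne1, Kcnj1, Kcnk7, Kcnk16 and Kcnmb1.

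**Figure D1:**
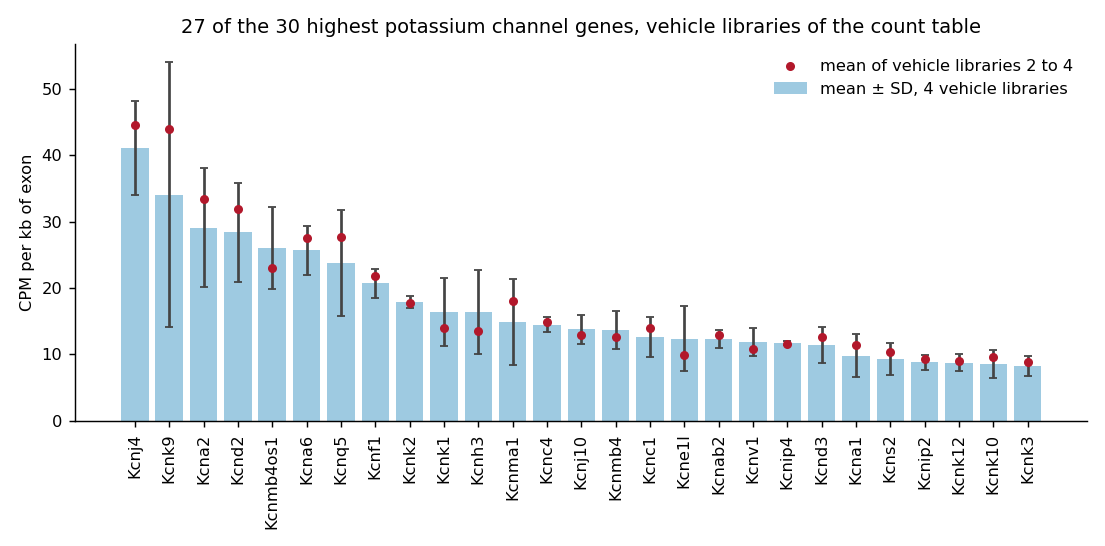
Level in vehicle (CPM per kb of exon, y axis) of 27 of the 30 highest members (x axis); bars give the mean and error bars the SD of 4 vehicle libraries, and red points the mean of libraries 2 to 4. Kcnj4 leads at 41.1, and the red point lies far above the bar for Kcnk9 (44 against 34.1).

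One vehicle library stood apart and touches many members. Vehicle library 1 had Kcnk9 at 5.35 CPM against 49.7 to 58.1 in the other 3, Kcna3 at 1.07 against 17.9 to 21.5, Kcnq3 at 5.35 against 19.5 to 24.4 and Kcnma1 at 25 against 83.7 to 90.8. Over the 64 tested members its median deviation from the other vehicle libraries was -0.44 on the log2 scale, with -0.31 for all genes over 100 kb and 0.14 for other genes. Its mean correlation with its group was 0.935, against 0.968 to 0.973 for the others. Pyraclostrobin library 1, which carries the same number, deviated from its group by -0.29 over the members, and its summed astrocyte markers reached 3827 CPM against 1101 to 1257 in the other 3. This library is also the single pyraclostrobin library of the screen. Results of the count table are therefore given with and without both.

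Pyraclostrobin, a strobilurin fungicide that blocks the Qo site of mitochondrial complex III, lowered more members than it raised. Of 64 members 26 fell and 4 rose, and 34 did not pass the test (edgeR quasi-likelihood, Benjamini-Hochberg over all 12324 genes tested). Over all genes 34.9% passed, with 16.4% lower and 18.5% higher. The median log2 fold change was -0.64 over the members and -0.00 over all genes. In 21 members every pyraclostrobin library lay below every vehicle library, and in 5 every one lay above, against 16.9% and 18.2% of all genes. Without both libraries numbered 1, an alternative chosen after seeing the data, 46 of 61 members passed (39 lower, 7 higher), against 50.8% of all genes, and all 30 of the first calls were among them. Leaving out 1 library gave 20 of 61 members (without vehicle library 3), against 26.9% of all genes, to 43 of 62 (without vehicle library 1), against 47.3%. The table pairs each treated library with a vehicle library by number, and with this number as a block 36 members passed (32 lower, 4 higher), against 39% of all genes. Members that passed with the block and not without it were Kcna2, Kcna4 (-0.52, adjusted p = 0.017), Kcnd2, Kcng1 (-0.75, adjusted p = 0.0192), Kcnj3 (-0.85, adjusted p = 0.00418), Kcnk9 (-0.71, adjusted p = 0.0319) and Kcnma1. Kcnj12 passed without the block (-0.73, adjusted p = 0.0339) and not with it (-0.71, adjusted p = 0.0522).

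Kcnt1 (Slack), a sodium-activated channel, showed the largest fall. It stood at 14.6, 26.1, 24.4 and 29.3 CPM in vehicle libraries 1 to 4 and at 7.06, 4.13, 6.47 and 5.92 CPM with pyraclostrobin, so the groups did not overlap (log2 fold change -2.01 ± 0.27 (SE), adjusted p = 0.00025, lower in 4 of 4). Its relative Kcnt2 (Slick) also fell, by 0.94 on the log2 scale (adjusted p = 0.0335), a call that was lost without any 1 of vehicle libraries 2, 3 and 4 or pyraclostrobin libraries 2 and 3. Kcnh3, a voltage-gated ELK subunit found mainly in forebrain, stood at 92.4, 40.5, 62.9 and 46.2 CPM in vehicle and at 18.8, 14.7, 11.8 and 17.4 CPM with pyraclostrobin (-1.94 ± 0.27, adjusted p = 0.000332). Here the treated libraries lay below even the lowest vehicle library. Kcnh1 (-0.79, adjusted p = 0.015, lost without vehicle library 3) and Kcnh2 (-0.70, adjusted p = 0.0245, lost without vehicle library 2, 3 or 4) fell as well, while Kcnh5 (-0.08) and Kcnh7 (-0.85, adjusted p = 0.136) did not pass. Without both libraries numbered 1, Kcnh7 passed as lower (-0.99).

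The Kv3 subunits support fast repolarisation in rapidly firing neurons. Kcnc2 (Kv3.2) stood at 19.3, 47.9, 33.6 and 43.4 CPM in vehicle and at 6.67, 12.4, 10.7 and 15 CPM with pyraclostrobin (-1.69 ± 0.31, adjusted p = 0.00161). Kcnc4 (Kv3.4) stood at 39.2, 47.1, 43.7 and 44.3 CPM in vehicle and at 14.9, 24, 17.5 and 15.8 CPM with pyraclostrobin (-1.27 ± 0.17, adjusted p = 0.000311). In both genes the groups did not overlap. Kcnc1 changed by -0.25 ± 0.20 without passing (adjusted p = 0.351), and passed without both libraries numbered 1 (-0.27).

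Among the other voltage-gated subunits the calls were mixed. Kcna1 (Kv1.1), an axonal channel, stood at 46, 112, 98.1 and 96.6 CPM in vehicle and at 21.6, 51.1, 41.5 and 47.4 CPM with pyraclostrobin (-1.13 ± 0.30, adjusted p = 0.0124). Only vehicle library 1 reached into the treated range. Kcna6 (-0.60, adjusted p = 0.00896) and Kcnq5 (-0.82, adjusted p = 0.0392) fell. The call of Kcnq5 was lost without vehicle library 2, 3 or 4 or pyraclostrobin library 1 or 3. Kcnq3 and Kcnq5 encode subunits of the M-current, which dampens repetitive firing. Kcna2 changed by -0.54 ± 0.23 (adjusted p = 0.0899), Kcnb2 by -0.28 ± 0.28 (adjusted p = 0.476), Kcnd2 by -0.77 ± 0.28 (adjusted p = 0.0538) and Kcnq3 by -0.58 ± 0.43 (adjusted p = 0.325). None of these 4 passed with all libraries and no block. With the block Kcna2 (-0.50, adjusted p = 0.0294) and Kcnd2 (-0.81, adjusted p = 0.000657) passed. Without both libraries numbered 1, Kcna2 (-0.65), Kcnd2 (-0.70) and Kcnq3 (-1.26) passed, and Kcnb2 (-0.47) did not.

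Among the calcium-activated channels and their partners, the BK accessory subunit Kcnmb4 stood at 56.7, 33.9, 47.2 and 44.3 CPM in vehicle and at 17.7, 15, 21.3 and 24.9 CPM with pyraclostrobin (-1.21 ± 0.20, adjusted p = 0.00103), with no overlap. Kcnmb4os1, a non-coding RNA at the same locus, fell alongside (-1.28 ± 0.25, adjusted p = 0.0027); strand was not stated in the sources used here, so reads of the pair cannot be told apart. Kcnmb2 fell by 1.12 (adjusted p = 0.0246, lost without vehicle library 3 or 4 or pyraclostrobin library 3). The pore subunit Kcnma1 stood at 25, 83.7, 83.9 and 90.8 CPM in vehicle and at 28.6, 51.5, 37.7 and 37.5 CPM with pyraclostrobin (-0.88 ± 0.34, adjusted p = 0.0638). Vehicle library 1 lay below all treated libraries of this gene, and without both libraries numbered 1 the change was -1.03 and passed. It also passed with the replicate block (-0.79, adjusted p = 0.0195). The SK subunits differed among themselves. Kcnn1 (-0.29 ± 0.42, adjusted p = 0.64) and Kcnn2 (-0.60 ± 0.44, adjusted p = 0.317) did not pass, and Kcnn3 rose, from 9.63, 16, 13.2 and 13.5 CPM to 27.5, 22.9, 23.6 and 18.6 CPM (0.82 ± 0.20, adjusted p = 0.00836). Without both libraries numbered 1, Kcnn2 passed as lower (-0.93).

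Among the resting-current channels, Kcnj10 rose, from 89.2, 64.2, 78.8 and 65.6 CPM in vehicle to 264, 142, 158 and 145 CPM with pyraclostrobin (1.25 ± 0.21, adjusted p = 0.000989), and the groups did not overlap. The neuronal inward rectifier Kcnj9 (Kir3.3) went the other way, from 21.8, 28, 29.5 and 27.8 CPM to 9.81, 15.8, 9.89 and 13 CPM (-1.15 ± 0.20, adjusted p = 0.00132). Of 9 Kir genes tested 3 fell, 1 rose and 5 did not pass. Kcnk2 (TREK-1), a K2P channel, rose from 67, 60.3, 65.2 and 67.1 CPM to 112, 83, 88.3 and 72.7 CPM (0.45 ± 0.14, adjusted p = 0.0305), and it passed only with all libraries, without vehicle library 1 or without pyraclostrobin library 4 among the fits that left out 1 library. Kcnk3 (-0.85) and Kcnk12 (-1.06) fell, and Kcnk1 (TWIK-1) changed by 0.38 ± 0.23 without passing (adjusted p = 0.228), and passed as higher without both libraries numbered 1 (0.43). The accessory subunit gene Kcne1l had the largest rise, from 30.3, 14.4, 15.4 and 16.2 CPM to 79.7, 68.4, 65.5 and 61.2 CPM (1.87 ± 0.23, adjusted p = 0.000159). The Kv4 partner Kcnip4 (KChIP4) fell from 31.4, 31.1, 31.4 and 29.9 CPM to 22.4, 14.7, 10.3 and 17 CPM (-0.95 ± 0.21, adjusted p = 0.00522).

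**Figure D2:**
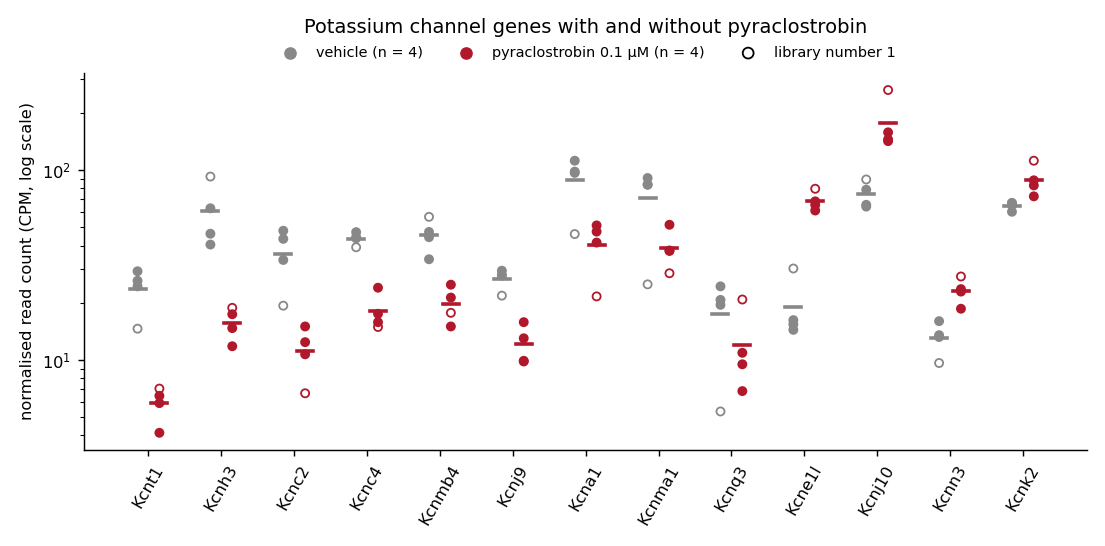
Normalised read count (CPM, log axis) of 13 members in 4 vehicle (grey) and 4 pyraclostrobin (red) libraries; open circles mark library 1, lines the group mean. Kcnt1 lies at 4.13 to 7.06 CPM with pyraclostrobin and at 14.6 to 29.3 in vehicle, while Kcne1l and Kcnj10 lie above all vehicle libraries.

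Other genes moved with these members. Of 14 tested partners of potassium channels outside the Kcn symbols and related channels, 11 fell and none rose, among them Dpp10 (-1.72 ± 0.18, adjusted p = 7.19e-05), a Kv4 partner, and Lgi1 (-1.18, adjusted p = 0.00272) and Adam23 (-1.06, adjusted p = 0.000829), which form a complex linked to presynaptic Kv1 channels. Of 15 immediate early genes 6 rose, among them Fos (1.92, adjusted p = 0.00393), and Egr3 fell (-1.45, adjusted p = 0.00256). Of 11 neuron markers 9 fell, and their summed level was 4095 to 5291 CPM with pyraclostrobin and 8940 to 9481 CPM in vehicle. Of 7 tested astrocyte markers 4 rose (summed over the list of 8, 1101 to 3827 CPM against 669 to 1187). Of 7 tested microglia markers all 7 rose (97.5 to 185 CPM against 27.8 to 39.7), and 5 of 6 tested mural and fibroblast markers rose (1234 to 1723 CPM against 85.7 to 199). Of 6 tested oligodendrocyte lineage markers 3 rose and 1 fell (summed over the list of 8, 203 to 329 against 99.3 to 197 CPM). Endothelial markers summed to 2.46 to 4.02 against 1.02 to 2.16 CPM, with Cldn5 and Tek under 10 counts in total. The part of a shift in cell types in the changes of the potassium channel genes was not tested. In bulk samples fewer cells of a type and less RNA per cell cannot be told apart.

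Topotecan, an inhibitor of topoisomerase 1 and the positive control of the screen, asked how the members respond to a drug known to act on long genes. Screen values are log10 RPKM that the authors normalised, centred on each gene's median and corrected for batch, given here on the log2 scale, so they hold differences and no levels, and their depth is unknown. Of 72 members 33 were lower and 6 higher in 32 topotecan against 49 vehicle libraries, and 33 did not pass (limma, Benjamini-Hochberg over all 13304 genes). Over all genes 45.8% passed, 20.9% lower and 24.8% higher. The median difference was -0.08 over the members and 0.03 over all genes. All comparisons against vehicle in the screen share the 49 vehicle libraries.

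The members with the largest falls were long genes for neuronal excitability. Kcnip4 (chr5:48780743-49915940, 1135 kb, the longest member) ranged from -0.45 over a median of -0.04 to 0.97 in vehicle and from -3.65 over -2.05 to -0.87 with topotecan (difference -2.03 ± 0.10 (SE), adjusted p = 2.24e-31, lower in 32 of 32). Kcnma1 (chr14:24117983-24622526) ranged from -0.48 over 0.02 to 0.69 in vehicle and from -2.68 over -1.66 to -0.92 with topotecan (-1.77 ± 0.08, adjusted p = 3.3e-35). Kcnq5 (chr1:21388484-21952023) ranged from -0.41 over 0.03 to 0.48 in vehicle and from -2.88 over -1.62 to -0.88 with topotecan (-1.67 ± 0.07, adjusted p = 1.21e-34). None of these 3 overlapped between the groups. Kcnd2 (-1.26 ± 0.08, adjusted p = 2.58e-26) and Kcnh1 (-1.09 ± 0.06, adjusted p = 1.71e-30) did not overlap either, which made 5 of 72 members (6.94%) against 1.01% of all genes, all lower. Kcnh5 (-1.25 ± 0.14), Kcnh7 (-1.21 ± 0.10) and Kcnc2 (-0.90 ± 0.07) fell with overlap of the groups.

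Of the other members followed throughout, Kcnq3 (-0.82 ± 0.11, adjusted p = 1.99e-10), Kcnb2 (-0.59 ± 0.06, adjusted p = 4.82e-15), Kcnn2 (-0.42 ± 0.09, adjusted p = 3.26e-05), Kcnj10 (-0.30 ± 0.06, adjusted p = 1.01e-05) and Kcna2 (-0.10 ± 0.04, adjusted p = 0.0203) were lower. Kcnc1 (-0.06 ± 0.03, adjusted p = 0.0545), Kcnh3 (0.11 ± 0.07), Kcnn1 (0.13 ± 0.09) and Kcnk1 (0.08 ± 0.04) did not pass. The 6 higher members were Kcng1 (0.66 ± 0.10, adjusted p = 3.6e-08), a silent Kv subunit, Kcna5 (0.56 ± 0.18, adjusted p = 0.00788), Kcnh6 (0.40 ± 0.16, adjusted p = 0.0326), Kcnh4 (0.31 ± 0.13, adjusted p = 0.0398), the KChIP gene Kcnip3 (0.30 ± 0.07, adjusted p = 0.000404) and Kcnj11 (0.30 ± 0.06, adjusted p = 2.76e-05), the pore of ATP-sensitive channels. Kcng1 ranged from -1.10 over 0.19 to 0.90 in vehicle and from -0.57 over 0.89 to 1.71 with topotecan, and 16 of 32 topotecan libraries lay above every vehicle library. Kcna5, Kcnh4 and Kcnh6 did not pass the filter of the count table, where they held 47, 97 and 25 counts over 8 libraries.

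The direction followed gene length. Of 71 members with a gene model, 22 (31%) were over 100 kb, against 15.3% of all genes. Of these 22, 20 were lower and none higher, with a median of -0.72, and the exceptions were Kcnn3 (0.14, adjusted p = 0.0536) and Kcnk2 (0.02). All 16 members over 200 kb were lower, as were 83.7% of all genes of that length (691 of 826). Of the 49 shorter members 13 were lower, 6 higher and 30 did not pass, with a median of -0.01. Among all genes the share that was lower was 65.6% over 100 kb (median -0.23) and 12.7% at or under it (median 0.05). Across the 71 members Spearman's rho of length and difference was -0.61, and -0.41 across 13041 genes; the points share the same libraries, and genes are not independent replicates. Short members that fell included Kcna1 (-0.34), Kcnj2 (-0.36) and Kcnj4 (-0.41), so long members were not the only ones that fell.

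**Figure D3:**
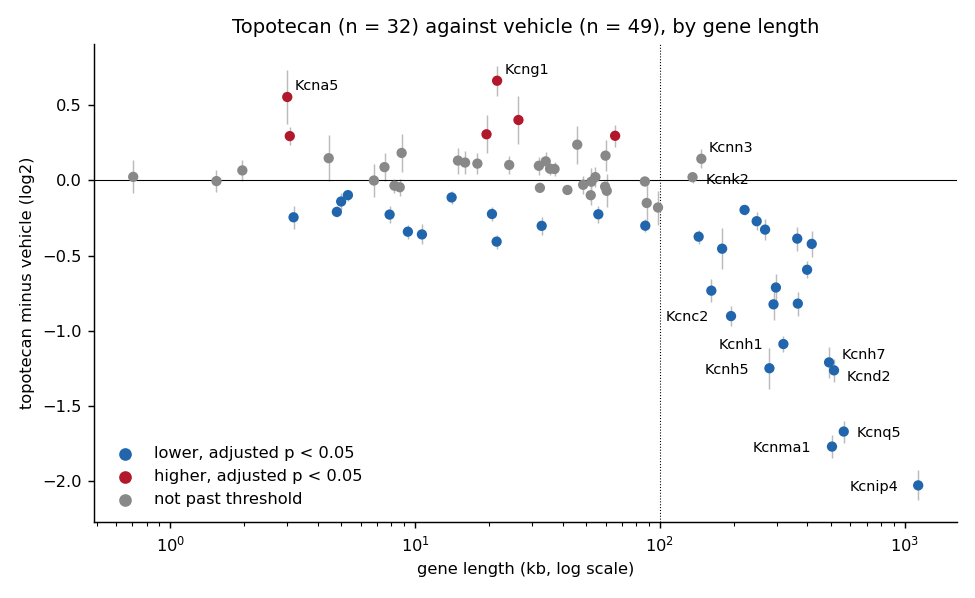
Difference between topotecan and vehicle (log2, ± SE, y axis) against gene length (kb, log axis) for 71 members, with those passing the test in blue (lower) or red (higher). Right of the dotted line at 100 kb, 20 of 22 members are blue, down to -2.03 for Kcnip4.

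Camptothecin and irinotecan, other topoisomerase 1 inhibitors, had 1 library each and get no test. Camptothecin at the same 0.3 µM lay within the range of the 32 topotecan libraries for 68 of 72 members and below it for 4 (Kcna3, Kcnc4, Kcnh1 and Kcnj6), against 95% of all genes within and 2.35% below. Kcnip4 was at -2.82 with camptothecin, -2.01 as the topotecan median and -1.33 with irinotecan at 10 µM, each minus the vehicle median. Kcnma1 was at -2.36, -1.68 and -1.25 in the same order. Of 15 partner genes 7 were lower with topotecan, including Dpp10 (-1.72 ± 0.09, adjusted p = 4.69e-30), and 3 were higher, including Cntn2 (0.57 ± 0.05, adjusted p = 8.66e-18). Among markers, 8 of 11 for neurons and 5 of 7 for astrocytes were lower with topotecan, and 2 for neurons were higher; their part in the members' values was not tested. Of 16 immediate early genes 9 were lower and 1 higher.

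The Qo inhibitors asked whether pyraclostrobin's pattern extends to other chemicals that block the same site of complex III. The class held 6 chemicals, namely the strobilurins azoxystrobin, pyraclostrobin (both 0.1 µM), fluoxastrobin (1 µM) and trifloxystrobin (10 µM), and famoxadone and fenamidone (10 µM), each entered as the median of its libraries. Of 72 members 33 were lower and 4 higher, against 23.4% of all genes in either direction, 15.1% lower and 8.23% higher. The median was -0.28 over the members and -0.01 over all genes. Without pyraclostrobin, whose library is also in the count table, 23 members passed (22 lower, 1 higher), against 15.8% of all genes. No member had all 6 chemicals below every vehicle library (0.00752% of all genes).

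Kcna1 was the lowest, with vehicle values from -0.27 over 0.07 to 1.09 (difference -1.04 ± 0.12, adjusted p = 8.86e-09, below the vehicle median in 6 of 6 chemicals). Relative to the vehicle median it was at -0.02 with azoxystrobin, -0.73 with fluoxastrobin, -0.85 with famoxadone, -1.42 with fenamidone, -1.46 with trifloxystrobin and -1.63 with pyraclostrobin. All but azoxystrobin lay below every vehicle library. Kcnh3 was at 0.32, -0.54, -1.003, -1.36, -1.64 and -0.87 in the same order (-0.82 ± 0.15, adjusted p = 3.36e-05), and 4 of the 6 lay below every vehicle library. Kcnk9, a leak channel of the K2P family (-0.79 ± 0.13, adjusted p = 6.46e-06), Kcnq3 (-0.79 ± 0.18, adjusted p = 0.00052), the G-protein-gated Kcnj6 (-0.73 ± 0.13, adjusted p = 2.06e-05), the silent subunit Kcnv1 (-0.71 ± 0.12, adjusted p = 3.15e-06), Kcnh8 (-0.68 ± 0.26, adjusted p = 0.0435) and Kcnt1 (-0.66 ± 0.15, adjusted p = 0.000546) completed the 8 largest falls. The call of Kcnh8 ended without any 1 chemical of the class other than azoxystrobin. Kcnh8 held 46 counts over the 8 libraries of the count table.

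By subfamily 6 of 9 Kir, 4 of 8 silent Kv and 3 of 6 Kv1 genes were lower, and no KChIP gene passed. Kcnma1 (-0.52 ± 0.13, adjusted p = 0.0014), Kcnn2 (-0.46 ± 0.17, adjusted p = 0.0424), Kcnb2 (-0.41 ± 0.09, adjusted p = 0.000464) and Kcnd2 (-0.39 ± 0.12, adjusted p = 0.013) were lower. Kcna2 (-0.25 ± 0.08, adjusted p = 0.0104) and Kcnc1 (-0.18 ± 0.06, adjusted p = 0.0154) were lower by less. These calls of Kcnn2, Kcnd2, Kcna2 and Kcnc1 each ended without pyraclostrobin, and each also without at least 1 of famoxadone, fenamidone and trifloxystrobin. Kcnn1 (-0.31 ± 0.18, adjusted p = 0.233), Kcnk1 (0.15 ± 0.07, adjusted p = 0.151) and Kcnip4 (-0.04 ± 0.13, adjusted p = 0.864) did not pass. The 4 higher members were Kcnk13 (0.58 ± 0.20, adjusted p = 0.0312), a K2P gene known from microglia, Kcne1l (0.44 ± 0.14, adjusted p = 0.0166), Kcnj10 (0.27 ± 0.09, adjusted p = 0.0304) and Kcnk2 (0.27 ± 0.08, adjusted p = 0.00806). Without pyraclostrobin or without famoxadone Kcnk13, Kcne1l and Kcnj10 did not pass, and Kcnk2 did. Kcnj10 was also lost without fenamidone or trifloxystrobin, Kcne1l without fenamidone and Kcnk13 without trifloxystrobin.

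The chemicals of the class were unequal. Counting members below every vehicle library, trifloxystrobin had 28 of 72, pyraclostrobin 27, fenamidone 24, famoxadone 12, fluoxastrobin 6 and azoxystrobin 0, where the median chemical has 2 (the median share over all genes is 2.27%). The shares over all genes were 10.8%, 11.4%, 9.35%, 7.37%, 2% and 0.21% in the same order, so chemicals with more members below the vehicle range mostly had more of all genes there too. Azoxystrobin and pyraclostrobin are strobilurins given at the same 0.1 µM. Azoxystrobin has 2 libraries and pyraclostrobin 1, so the difference has no replicate check. The vehicle range is that of single libraries, and a median of 2 libraries may leave it less often. The other chemicals with 2 libraries had from 0.256% (picloram) to 9.35% (fenamidone) of all genes below it. In the class 3 chemicals had a repeat library that could be compared with the first: both libraries lay below the vehicle median in 49 of 72 members for fenamidone, 43 for famoxadone and 11 for azoxystrobin, with median differences between libraries of 0.29, 0.23 and 0.25. Kcna1 was at -1.19 and -1.65 in the fenamidone libraries and at -0.95 and -0.74 in those of famoxadone, while Kcnq3 was at -1.63 and -0.38 with fenamidone. Partners outside the Kcn symbols were lower in 12 of 15 cases and neuron markers in 10 of 11. Mural and fibroblast markers were higher in 5 of 7 cases, astrocyte markers in 2 of 7 and microglia markers in 0 of 5. The part of these genes in the members' values was not tested.

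**Figure D4:**
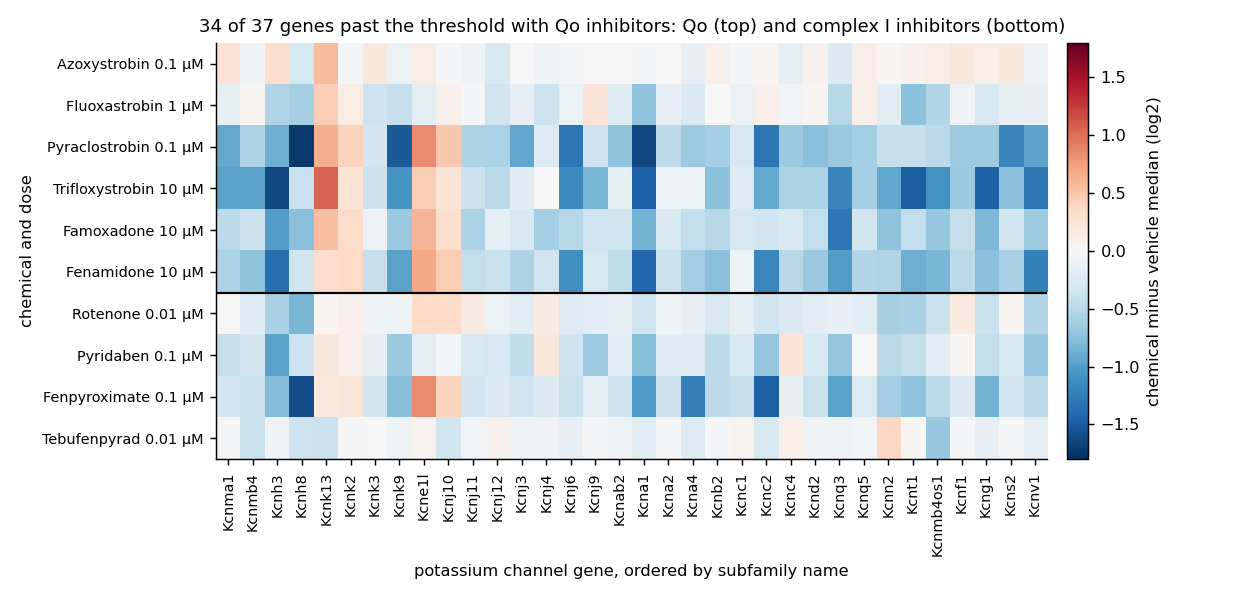
Chemical minus vehicle median (log2, colour; blue is lower, red higher) for 34 of the 37 members that passed with Qo inhibitors (columns) in 6 Qo and 4 complex I inhibitors (rows). The azoxystrobin row is near white (Kcna1 at -0.02), the pyraclostrobin and trifloxystrobin rows are deep blue (Kcna1 at -1.63 and -1.46), and fenpyroximate is the deepest of the lower 4.

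Complex I inhibitors block an earlier step of the same respiratory chain. With rotenone and tebufenpyrad (0.01 µM), pyridaben and fenpyroximate (0.1 µM), 10 of 72 members were lower and none higher, against 6.98% of all genes, 5.65% lower and 1.33% higher. Those with large falls were Kcnc2 (-0.74 ± 0.15, adjusted p = 0.00104), Kcna1 (-0.61 ± 0.13, adjusted p = 0.00097), Kcnh3 (-0.57 ± 0.16, adjusted p = 0.0142), Kcna4 (-0.49 ± 0.14, adjusted p = 0.021), Kcnv1 (-0.45 ± 0.12, adjusted p = 0.00949), Kcnmb4 (-0.38 ± 0.11, adjusted p = 0.0268) and Kcnb2 (-0.30 ± 0.10, adjusted p = 0.0459). Each of the 10 lay below the vehicle median in 4 of 4 chemicals. No member had all 4 chemicals below every vehicle library or all above (0.0301% and 0.00752% of all genes). Kcnc2 was at -1.47 with fenpyroximate, -0.70 with pyridaben, -0.36 with rotenone and -0.29 with tebufenpyrad. Without fenpyroximate 0 members passed (11 at an unadjusted p under 0.05 by limma), against 0.481% of all genes. Against all other chemicals in place of vehicle 3 of 72 passed, where 4.55% of all genes did. Kcnq3 (-0.45 ± 0.21), Kcnn1 (-0.40 ± 0.21), Kcnn2 (-0.33 ± 0.21), Kcnma1 (-0.25 ± 0.14), Kcnd2 (-0.24 ± 0.14), Kcnc1 (-0.20 ± 0.07), Kcna2 (-0.20 ± 0.09), Kcnip4 (-0.06 ± 0.15), Kcnj10 (0.09 ± 0.12) and Kcnk1 (0.17 ± 0.09) did not pass. Neuron markers were lower in 9 of 11 cases and partner genes in 7 of 15, and 2 of 7 mural and fibroblast markers were higher; their part was not tested.

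Pyrethroids are insecticides that hold voltage-gated sodium channels open. Over 12 pyrethroids 7 members were lower and none higher, against 3.46% of all genes, 2.13% lower and 1.32% higher. Among them were Kcnh3 (-0.62 ± 0.12, adjusted p = 0.00182, below the vehicle median in 11 of 12), Kcnq3 (-0.52 ± 0.15, adjusted p = 0.0372), Kcnv1 (-0.41 ± 0.08, adjusted p = 0.0028) and Kcnc1 (-0.19 ± 0.05, adjusted p = 0.0161). Kcnh3 ranged from -2.03 with fenpropathrin to 0.15 with d-cis,trans-allethrin, relative to the vehicle median. Without cyfluthrin and fenpropathrin, which the study placed in its expression cluster 1, 0 members passed by limma, against 0.526% of all genes, with 11 members at an unadjusted p under 0.05. Against all other chemicals 0 passed as well, against 0.451% of all genes, with 9 members at an unadjusted p under 0.05. Few genes of any kind passed in these fits. Kcnn2 (-0.38 ± 0.13, adjusted p = 0.101), Kcnn1 (-0.25 ± 0.14), Kcnb2 (-0.20 ± 0.07, adjusted p = 0.0751), Kcnma1 (-0.12 ± 0.08), Kcnj10 (-0.09 ± 0.08), Kcna2 (-0.08 ± 0.06), Kcnk1 (-0.06 ± 0.06), Kcnip4 (0.05 ± 0.09) and Kcnd2 (0.12 ± 0.09) did not pass.

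Some pyrethroids carry an alpha-cyano group and others do not, and 10 were given at a matched 10 µM, 4 with the group (cyfluthrin, cypermethrin, esfenvalerate and fenpropathrin) and 6 without. This 1 comparison of the 2 sets found 0 of 72 members past the threshold (limma), against 0% of all genes, and 7 members had an unadjusted p under 0.05. Every alternative fit also gave 0. Kcnq3 had the largest difference, -0.96 in those with the group relative to those without (95% interval -1.66 to -0.26, adjusted p = 0.991). Kcnh3 differed by -0.55 (-1.34 to 0.23), Kcnn1 by -0.33 (-1.11 to 0.44) and Kcnb2 by -0.25 (-0.69 to 0.18). The median width of the interval to either side was 0.43 over the members, so changes of that size were not detectable for many of them. The intervals are not adjusted for the number of genes tested, so larger changes, such as that of Kcnq3, could also go undetected. The GABA blockers fipronil (1 µM), endosulfan and lindane (10 µM), which block GABA-gated chloride channels, gave 0 of 72 members by limma, against 0% of all genes, with 1 member (Kcnh2, 0.38 ± 0.15) at an unadjusted p under 0.05. Kcnh3 differed by -0.26 (95% interval -0.65 to 0.13) and was at 0.56 with fipronil, -0.54 with lindane and -0.89 with endosulfan. Kcnq3 differed by -0.18 (-0.70 to 0.34) and Kcna2 by 0.19 (-0.02 to 0.40).

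Over the whole screen the members differed in how closely the 49 vehicle libraries agreed. The SD over vehicle was among the smallest for Kcna6 (0.12 on the log2 scale) and Kcnc1 (0.13). It was largest for Kcna5 (0.88), Kcnu1 (0.75), Kcnrg (0.71), Kcnh6 (0.70) and Kcnk4 (0.61), none of which passed the filter of the count table. The median SD was 0.29 over the members and 0.25 over all genes. Kcna1 and Kcnh3 lay below every vehicle library in 51 of 297 chemicals each, Kcnb2 in 43 and Kcnc1 in 40, while the median was 10 chemicals over the members and 5 over all genes. The chemicals as a whole were lower than vehicle for these genes. The median over 297 chemicals minus the vehicle median was -0.13 for Kcna1, -0.11 for Kcnh3, -0.16 for Kcnb2 and -0.09 for Kcnc1, against -0.04 over the members and -0.00 over all genes.

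The chemicals with most members below every vehicle library were trifloxystrobin (28 of 72), pyraclostrobin (27), fenamidone (24), camptothecin (22) and metsulfuron (21). Over all genes the same count was 10.8%, 11.4%, 9.35%, 8.64% and 10.2%, so the chemicals that moved many members also moved many other genes. Metsulfuron is a sulfonylurea herbicide, and its lowest members were Kcnh7 at -3.20 and Kcnq3 at -3.14 relative to the vehicle median. Far fewer members lay above the vehicle range, with at most 6, in d-cis,trans-allethrin, diclofop-methyl and flumetsulam, followed by 5 in butafenacil, imazapyr and isoxaflutole. Over all genes the share above was 2.53%, 2.31%, 2.59%, 2.52%, 2.39% and 2.08% in these chemicals, with a median of 1.91% over the screen. Each of these 6 chemicals has 1 library.

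**Figure D5:**
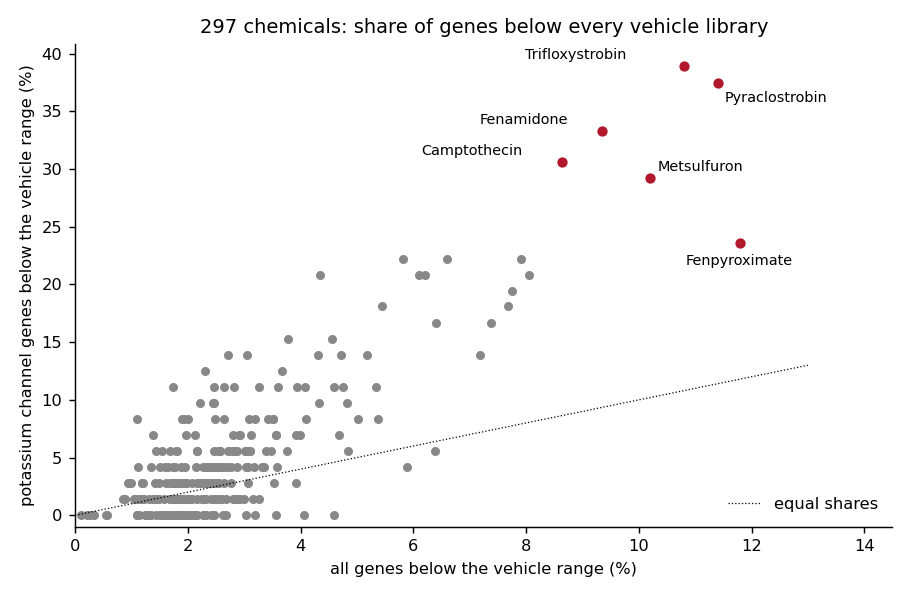
Share of the 72 members below every vehicle library (y axis, %) against the same share of all genes (x axis, %) for 297 chemicals, with the dotted line at equal shares. Trifloxystrobin (38.9% against 10.8%) and pyraclostrobin (37.5% against 11.4%) are the highest points.

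The study grouped chemicals by expression, so its clusters are described with no test. In the 7 chemicals of cluster 1, 17 members lay below the vehicle median in every chemical and 6 above it, against 8.49% and 7.07% of all genes. The largest mean differences were Kcnq3 (-1.29 ± 0.75, SD over chemicals), Kcnh3 (-1.12 ± 0.42), Kcng1 (-1.12 ± 0.27), Kcnv1 (-0.76 ± 0.29), Kcnn1 (-0.70 ± 0.52) and Kcnn2 (-0.69 ± 0.51). On the other side were Kcnj3 (0.69 ± 0.41), a G-protein-gated Kir gene, Kcnk13 (0.55 ± 0.33), Kcnd2 (0.48 ± 0.27), Kcns2 (0.40 ± 0.27), Kcnt2 (0.31 ± 0.24) and Kcnh7 (0.13 ± 0.11). In the 8 chemicals of cluster 2, which include most of the complex I and III inhibitors above, 29 members lay below and 2 above (15.3% and 12.7% of all genes). They were led by Kcnq3 (-1.02 ± 0.59), Kcnh3 (-1.01 ± 0.34), Kcna1 (-0.97 ± 0.52), Kcnh8 (-0.88 ± 0.54), Kcnc2 (-0.84 ± 0.45) and Kcnv1 (-0.83 ± 0.31), with Kcnk13 (0.42 ± 0.32) and Kcnk1 (0.19 ± 0.12) above. In the 7 chemicals of cluster 6, 24 members lay below and 3 above (14.4% and 9.73% of all genes). Kcnq3 (-1.49 ± 0.87), Kcng3 (-1.37 ± 0.49), Kcnh7 (-1.35 ± 0.95), Kcna3 (-1.35 ± 0.48), Kcnma1 (-0.96 ± 0.32) and Kcnb2 (-0.94 ± 0.28) were lowest, and Kcns1 (0.66 ± 0.38), Kcnmb4 (0.21 ± 0.14) and Kcnc4 (0.20 ± 0.18) were higher. In each of the 3 clusters Kcnq3 had the lowest mean among the members that lay below the vehicle median in every chemical. Kcnq3 was also low over the whole screen. Its median over 297 chemicals minus the vehicle median was -0.29, against -0.04 over the members. Kcnh7 was above the vehicle median in every chemical of cluster 1 and below it in every chemical of clusters 2 and 6, and Kcnd2 was above it in cluster 1 and below it in cluster 6. Kcnmb4 and Kcnc4 were above it in cluster 6, and with pyraclostrobin in the count table both fell.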

How the data were processed

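RNA of cortical cultures was sequenced as polyA libraries. TagDust was used by the authors to clean the reads, TopHat (also in the submitters' processing notes) to align them to the mm9 genome, and ribosomal reads were removed; tool versions are not given in the sources used here. The authors deposited raw counts over RefSeq exons for 4 pyraclostrobin and 4 vehicle libraries, and a screen table of log10 RPKM, normalised, median-centred per gene and batch-corrected, of unknown depth. Members and gene lists were chosen with earlier results of these data known. Counts were tested with edgeR 4.0.16 (quasi-likelihood, TMM, at least 10 counts in at least 4 libraries) and alternatively DESeq2 1.42.0, and screen values, multiplied to log2, with limma 3.58.1; tests were two-sided with adjusted p under 0.05 as threshold. The SE of a log2 fold change in the count table was taken from the quasi-likelihood F. A further count table of 6 columns with one shared column name could not be mapped and was not used. The columns of the pyraclostrobin table pair libraries by number, and the authors call the vehicles matched, without saying in what. A fit with the number as a block is therefore given where it changes a call. Deviations of same-numbered libraries correlated at 0.38, 0.10, -0.03 and 0.16. Pyraclostrobin library 1 correlated at -0.22, -0.25 and -0.31 with vehicle libraries 2 to 4. Pyraclostrobin libraries 2 to 4 correlated at -0.24, -0.02 and -0.26 with vehicle library 1, and at -0.03 to 0.22 with vehicle libraries 2 to 4. Each chemical class entered as medians of its chemicals' libraries. In the count table, 10 counts equal 3.92 to 4.15 CPM in the pyraclostrobin libraries and 1.28 to 3.6 CPM in the vehicle libraries. Gene lengths and coordinates are from GENCODE M1 on NCBIM37 (mm9); 71 of 72 screen members matched. Summed marker levels are CPM of total counts, other CPM use TMM. Scripts were tested on simulated data. Named were up to 8 members in each direction per comparison plus Kcna2, Kcnb2, Kcnc1, Kcnd2, Kcnh3, Kcnip4, Kcnj10, Kcnk1, Kcnma1, Kcnn1, Kcnn2 and Kcnq3, the 10 highest and 5 lowest levels (with ties), the 5 largest and 3 smallest vehicle SDs, the 5 chemicals at each end (with ties), and up to 6 members each way per cluster; others named were chosen after their values were seen. Some genes that the rule names are not reported here; they remain in the counts and medians.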

Additional observations from a re-analysis of the deposited data

Results flagged for a closer look

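A single library or chemical far from the rest of its group was found in 9 of 91 groups of 4 or 6 values of the named members. For independent normal values chance gives about 1 in 20. These groups share libraries and chemicals, and members were partly picked by size of change, so no excess over that rate can be read. In the count table, vehicle library 1 held Kcnma1 at 25 CPM against 83.7 to 90.8 in the others, and Kcne1l at 30.3 CPM against 14.4 to 16.2. Pyraclostrobin library 1 held Kcnj10 at 264 CPM against 142 to 158 and Kcnc1 at 70.2 CPM against 102 to 107. Vehicle library 4 held Kcnip4 at 29.9 CPM against 31.1 to 31.4. Among the Qo inhibitors pyraclostrobin stood at -1.74 for Kcnh8, relative to the vehicle median, against -0.75 to -0.31 in the other 5. Among the complex I inhibitors fenpyroximate stood at -1.23 for Kcna4 against -0.24 to -0.15, and tebufenpyrad stood at -0.34 for Kcnip4 against 0.04 to 0.08 and at 0.37 for Kcnn2 against -0.62 to -0.48.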

How the results depend on the processing

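With only the variably expressed genes (SD over 0.1 on the log10 scale, 37 of the 72 members), topotecan gave 21 (34.8% of all such genes), Qo inhibitors 11 (11.6%), complex I inhibitors 1 (1.58%) and pyrethroids 1 (1.15%); fewer members then entered. At a threshold of 0.01 pyraclostrobin gave 15 (21.3% of all genes), complex I inhibitors 6 (3.58%) and pyrethroids 3 (0.864%). Against all other chemicals complex I inhibitors gave 3 (4.55%) and pyrethroids 0 (0.451%), and without the 2 cluster 1 pyrethroids 0 (0.526%). Leaving out 1 library gave 20 (without vehicle replicate 3, 26.9%) to 43 (without vehicle replicate 1, 47.3%) for pyraclostrobin, and leaving out both libraries numbered 1, added after seeing the data, gave 46 (50.8%). Leaving out 1 chemical gave 23 (without pyraclostrobin, 15.8%) to 39 (without azoxystrobin, 27.4%) for Qo inhibitors. For complex I inhibitors it gave 0 (without fenpyroximate, 0.481%) to 12 (without tebufenpyrad, 10.2%), and 4 without pyridaben (4.19%). For pyrethroids it gave 3 (without fenpropathrin, 1.2%) to 8 (against 3.01% to 5.3%), and 4 without cyfluthrin (1.77%). Fewer chemicals or libraries then entered. Of the named Qo calls, leaving out pyraclostrobin ended 8, famoxadone, fenamidone or trifloxystrobin 6 each and fluoxastrobin 1, and Kcnh8, Kcnn2, Kcnj10, Kcne1l, Kcnk13, Kcnd2, Kcna2 and Kcnc1 were the calls that ended. In complex I Kcnb2 was also lost without rotenone and Kcnmb4 without tebufenpyrad, and among pyrethroids Kcnq3 was lost without any 1 of 5 chemicals. The cause of the other moves was not tested. With a replicate block pyraclostrobin gave 36 members (39% of all genes), with 7 calls gained and 1 lost, and not every library correlated best with its own number. DESeq2 gave 34 (36.7% of all genes), no filter on low counts 34 of 93 members (25.9%), and other size factors 30 (35%). Over all named members, 1382 of 1561 values under the alternatives kept their side of the threshold, 150 lost the call and 29 gained it. The 1382 include 113 values for GABA blockers and 190 for the alpha-cyano comparison, where no member passed in any fit. Direction was compared only where the main fit or the alternative passed, and none of those values reversed. The planned comparison of sulforaphane pretreatment and its alternatives, the block included, were not run. No paired analysis was possible for it because its columns carry one shared name. The 4 vehicle and 4 pyraclostrobin libraries limit the count table to changes in members with at least 10 counts.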
